A study of Rattus norvegicus with 6 samples.

Results

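Actin, cofilin and contractile genes were followed in fibroblasts of the established rat line Rat-1 that had spent 4 h on extracellular matrix (ECM), at 25000 seeded cells per well. The genes were chosen by symbol: the cytoplasmic actins Actb and Actg1, the smooth muscle actin Acta2, the filament-disassembling factor cofilin Cfl1, the monomer-binding factor profilin Pfn1, the filament-binding Tagln, Tpm1 and Cnn2, and the myosin II subunits Myl9 and Myh9. Of these 10 symbols, 9 had a row among the 17143 genes of the table, and each of the 9 passed the filter on low values in the test (at least 5 units in at least 2 libraries), as 9 of 7284 tested genes. Cnn2, which encodes calponin 2, was not analysed here. The groups were fibroblasts on ECM remodelled by matrix metalloproteinase 13 (MMP13, 2 libraries), on ECM remodelled by matrix metalloproteinase 1 (MMP1, 2 libraries) and on native ECM with no enzyme treatment (2 libraries). Both enzymes are secreted collagenases. All 6 libraries share the line, the seeding and the time, and hold RNA of the cells that adhered to the matrix. The labels speak of duplicates without saying whether these were separate cultures, so a p-value here measures the spread of these libraries, and that spread may be technical.

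Actin monomers assemble into filaments that push the cell edge forward and, when decorated with tropomyosin and pulled by myosin II, form the stress fibres with which a fibroblast grips and strains its matrix. Profilin supplies monomers to growing filament ends, and cofilin severs and disassembles older filaments. Several of these genes are classical targets of serum response factor (SRF), whose coactivators are held back by free actin monomers, so that filament assembly is coupled to transcription of actin genes. Acta2 and Tagln are in addition widely used as markers of the contractile, myofibroblast-like state of fibroblasts.

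Messenger RNA was measured by sequencing of transcript 3' ends, so values carry no gene length and are compared here between libraries, not between genes. Values are the deposited reads divided by 1 size factor per library, called units. Recovered whole reads per library ranged from 161817 to 362122 for MMP13, from 184061 to 225105 for MMP1 and from 219775 to 347618 for native matrix. The number of genes with a read was 9983 to 10852. A count of 0 allows up to 3 reads, which is 2.21 to 5.04 units depending on the library, for counting error only. The fibroblast markers Col1a1, Vim, Lgals1 and the other 7 of their list had reads in every library, and together took 2.94% to 3.29% of its reads. Lists of differentiated smooth muscle, striated muscle, epithelial, endothelial and leukocyte markers each took at most 0.0173% of the reads of any library. Of the smooth muscle list, Myh11, Cnn1, Lmod1 and Myocd had at most 3 reads each over all 6 libraries. In the same list Des had 13 reads, Actg2 15 and Smtn 138, with Smtn read in all 6 libraries. The epithelial marker Krt8 (59 reads) and the leukocyte marker Csf1r (86 reads) were also read in all 6 libraries. As this is a bulk measurement, fewer cells that express a gene and less of its RNA per cell cannot be told apart.

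None of the 9 genes passed the test between any pair of matrices, by limma with Benjamini-Hochberg adjustment over all tested genes (adjusted p under 0.05). For MMP13 against native matrix 0 of 9 passed, where 0.412% of all tested genes were called. For MMP1 against native matrix it was 0 of 9, where 0.151% were called, and for MMP13 against MMP1 0 of 9, where 0.0412% were called. With 2 libraries a group, a gene that missed the threshold is not shown to have the same level on both matrices. At an unadjusted limma p under 0.05, Acta2 stood alone among the 9 in each comparison with native matrix, where 8.05% (MMP13) and 8.24% (MMP1) of all tested genes reached that level. Between MMP13 and MMP1 matrix it was 0 of 9, where 5.22% of tested genes did. Both edgeR and DESeq2, run on the recovered reads, also called 0 of 9 in each comparison. At an unadjusted p under 0.05 both had 0 of 9 as well. In the order MMP13 against native, MMP1 against native and MMP13 against MMP1, edgeR called 32, 10 and 2 of its 4574 genes. Its genes at an unadjusted p under 0.05 numbered 434, 433 and 199. DESeq2 called 26 of 858, 1 of 14735 and 1 of 14735 genes with an adjusted p. Its genes at an unadjusted p under 0.05 numbered 314, 326 and 133. For MMP13 against native, DESeq2 gave Acta2 no adjusted p. The median log2 fold of the 9 genes was 0.009 for MMP13 against native, 0.034 for MMP1 against native and -0.004 for MMP13 against MMP1, beside medians of 0.009, 0.016 and -0.003 over all tested genes. The comparisons with native matrix share its 2 libraries, so their values stand side by side and are not independent.

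The 9 genes together took 2.72% and 2.69% of reads on MMP13-remodelled matrix, 2.71% and 2.67% on MMP1-remodelled matrix, and 2.89% and 2.83% on native matrix. The 4 libraries from remodelled matrix thus lay below both native ones. Without Actb, the other 8 genes took 1.12% to 1.23% on MMP13-remodelled, 1.12% to 1.19% on MMP1-remodelled and 1.15% to 1.23% on native matrix, and the ranges overlapped.

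**Figure D1:**
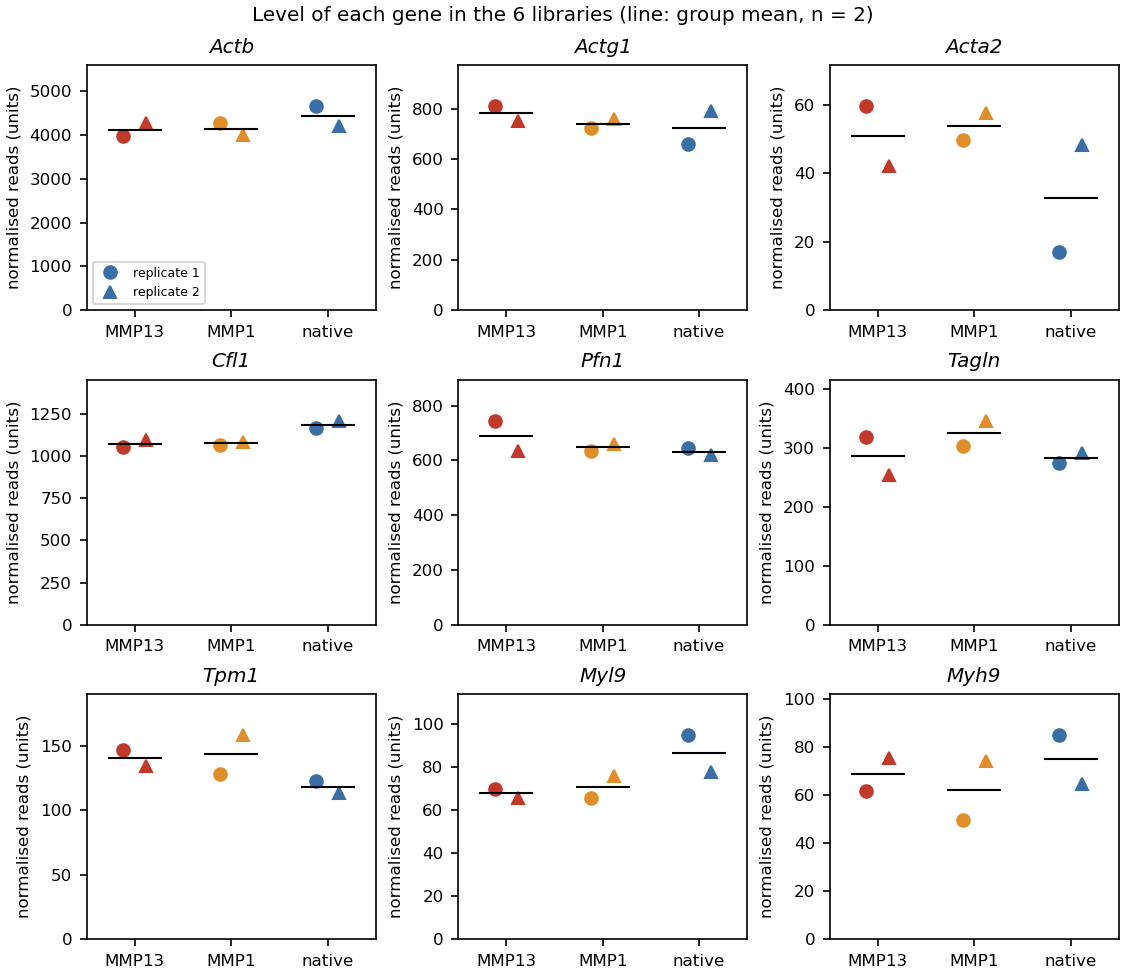
Normalised reads (units, axis from 0) of each of the 9 genes in every library, by matrix (MMP13, MMP1, native), with circles for replicate 1, triangles for replicate 2 and a line for the mean of 2. Most genes lie within a narrow band in all 6 libraries; Acta2 in native replicate 1, at 17.0 units, stands apart from 42.0 to 59.6 units in the other 5 libraries.

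Of the actins, Actb, which encodes the main cytoplasmic actin of fibroblasts, had 3979 and 4269 units on MMP13-remodelled matrix, 4272 and 3996 on MMP1-remodelled matrix, and 4667 and 4204 on native matrix. Native replicate 1 was the highest library, while native replicate 2 lay among those from remodelled matrix, so the groups overlapped in units. As a share of the reads of its library, Actb was higher in both native libraries than in any from remodelled matrix, narrowly so for native replicate 2. Actb averaged 4124 ± 204 units on MMP13-remodelled, 4134 ± 195 on MMP1-remodelled and 4435 ± 327 on native matrix (SD, n = 2 each), and the highest library was 1.17 times the lowest. Against native, the log2 fold was -0.10 for both enzymes (SE 0.065; adjusted p = 0.73 in each), with 95% intervals of -0.23 to 0.023 for MMP13 and -0.23 to 0.027 for MMP1. These intervals take their error from the trend over all genes of like level. From the libraries of Actb alone they were wider, at -0.37 to 0.16 for MMP13 and -0.37 to 0.17 for MMP1.

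Actg1 encodes the other cytoplasmic actin. It had 810 and 752 units on MMP13-remodelled matrix, 721 and 757 on MMP1-remodelled matrix, and 660 and 790 on native matrix. The lowest and the second highest values both came from native matrix, so that each group with remodelled matrix lay within or across the native range. For MMP13 against native the log2 fold was 0.11 (95% interval -0.12 to 0.34, adjusted p = 0.88) and for MMP1 it was 0.034 (-0.20 to 0.26, adjusted p = 0.97). The ratio of Actg1 to Actb within a library, which does not depend on the size factor, was 0.204 and 0.176 on MMP13-remodelled, 0.169 and 0.190 on MMP1-remodelled and 0.141 and 0.188 on native matrix. The ratios overlapped between all groups.

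SRF binds the CArG box. Promoters from RefSeq (build GRCr8, 250 bases before to 50 after the start of each gene) were searched on both strands for its strict form. That form is CC, then 6 letters that are each A or T, then GG. A box with any other letter was not counted, so a gene without a match may still hold a variant box. Of the 9 genes, 6 matched this promoter set by symbol (Actg1, Acta2, Cfl1, Pfn1, Tpm1 and Myh9), and 1 of the 6, Actg1, held a strict CArG box in that window. Actb, Tagln and Myl9 had no match by symbol, so their promoters were not searched. Of all 33469 promoters of that length 1.64% held one, and of the 95 distinct promoters matched for the 10 symbols and the actin-related genes listed by role further on, 8 did. The boxes of Actg1, of Srf and of Fhl2 are shown because their genes stand for the filament building block, the factor and its cofactor, and the capitals mark the box. The Actg1 window is chr10:106121007-106121066 on the minus strand, with the box starting 90 bases upstream of the start. The Srf window is chr9:21923970-21924049 on the plus strand, with boxes from 81 and 61 bases upstream. The Fhl2 window is chr9:52954601-52954660 on the minus strand, with the box from 95 bases upstream.
Actg1: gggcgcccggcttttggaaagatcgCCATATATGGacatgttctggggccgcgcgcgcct
Srf: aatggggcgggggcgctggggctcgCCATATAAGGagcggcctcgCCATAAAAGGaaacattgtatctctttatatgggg
Fhl2: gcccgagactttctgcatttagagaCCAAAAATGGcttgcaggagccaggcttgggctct
Actg1, with such a box, had log2 folds of 0.11 (MMP13) and 0.034 (MMP1) against native. The 5 matched genes without a strict box in this window ranged from -0.14 for Cfl1 to 0.78 for Acta2 with MMP13. With MMP1 they ranged from -0.29 for Myh9 to 0.87 for Acta2. These 5 genes are not shown to lack a variant box. Over the tested genes with a matched promoter, the median log2 fold was -0.14 for MMP13 and -0.14 for MMP1 in the 81 genes with a strict CArG box. In the 5489 without one it was 0.009 and 0.004. Both comparisons share the native libraries, and the difference between these medians was not tested. As variant boxes and unmatched promoters are left out, the 81 genes do not stand for the targets of SRF. The letters CATTCC, the MCAT motif bound by TEAD factors, occurred on either strand in 3 of the 6 (Acta2, Pfn1 and Tpm1), and in 14.2% of all promoters. A match describes these letters only and does not show binding.

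Acta2, the smooth muscle actin of stress fibres in myofibroblasts, had 59.6 and 42.0 units on MMP13-remodelled matrix, 49.7 and 57.6 on MMP1-remodelled matrix, and 17.0 and 48.3 on native matrix. Native replicate 1 was the single low library: both MMP1 libraries exceeded both native ones, and MMP13 replicate 2 lay below native replicate 2. The native values rest on 14 and 64 reads, with exact 95% Poisson intervals for counting error of 9.30 to 28.6 and 37.2 to 61.7 units, so these replicates differ by more than counting error. Acta2 averaged 50.8 ± 12.4 units on MMP13-remodelled, 53.6 ± 5.63 on MMP1-remodelled and 32.7 ± 22.1 on native matrix (SD, n = 2 each). The log2 fold, which compares means of log2 values and so weights the low library more than these averages do, was 0.78 for MMP13 (SE 0.35, 95% interval 0.091 to 1.46, adjusted p = 0.51) and 0.87 for MMP1 (SE 0.35, 0.19 to 1.56, adjusted p = 0.39). On the recovered reads edgeR and DESeq2 both gave 0.61 for MMP13, and 0.64 and 0.66 for MMP1. With the error taken from the libraries of Acta2 alone, the intervals ran from -1.24 to 2.79 for MMP13 and from -1.14 to 2.88 for MMP1. Leaving out native replicate 1 gave a log2 fold of 0.050 for MMP13 and 0.14 for MMP1, and leaving out native replicate 2 gave 1.50 for MMP13 (adjusted p = 0.103) and 1.60 for MMP1 (adjusted p = 0.088). The size of the Acta2 difference therefore depends on which native library is used, and no choice of libraries gave a call. The 7 markers of differentiated smooth muscle summed to 39.0 to 47.0 units on MMP13-remodelled, 26.3 to 33.6 on MMP1-remodelled and 13.4 to 27.9 on native matrix, with 138 of their 175 reads from Smtn, and their part in the Acta2 values was not tested.

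**Figure D2:**
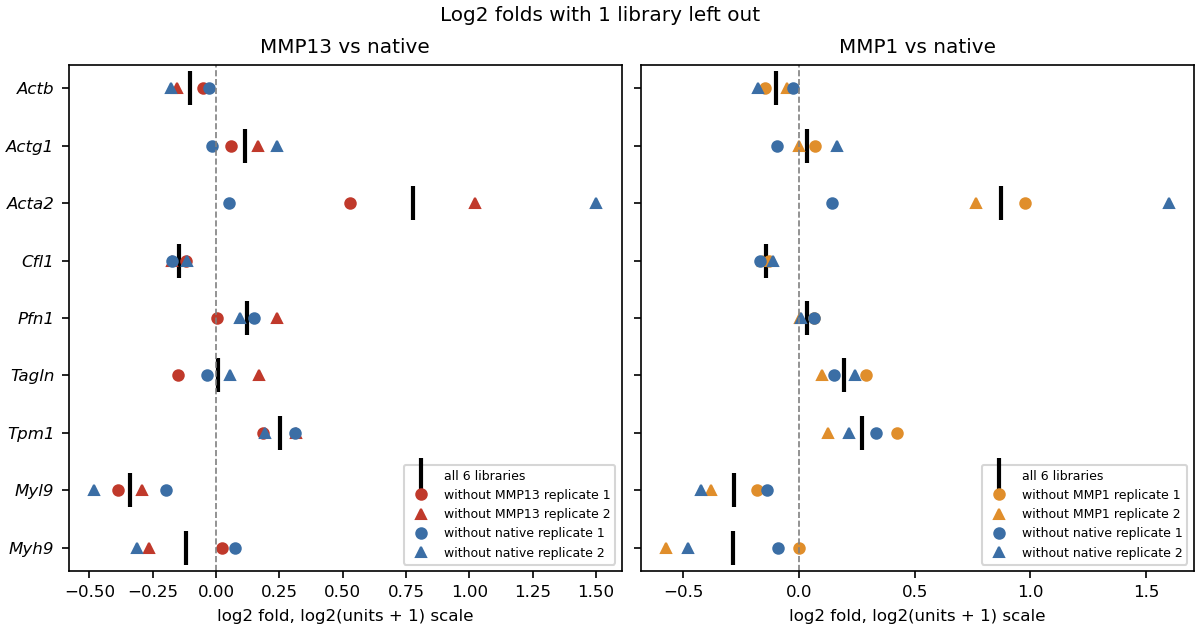
Log2 fold of each gene (x axis, log2(units + 1) scale) with all 6 libraries (black bar) and with 1 library of the compared groups left out (circles for replicate 1, triangles for replicate 2), for MMP13 against native (left) and MMP1 against native (right). Acta2 moves between 0.050 and 1.50 on the left and between 0.14 and 1.60 on the right with the native library that is left out; Cfl1 stays between -0.17 and -0.11 in both panels.

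Cfl1, which encodes the cofilin of non-muscle cells, was the gene with the tightest replicates. It had 1054 and 1095 units on MMP13-remodelled matrix, 1068 and 1086 on MMP1-remodelled matrix, and 1165 and 1211 on native matrix. All 4 libraries from remodelled matrix lay below both native ones, and those of MMP13 and MMP1 overlapped. Cfl1 averaged 1074 ± 29.0 units on MMP13-remodelled, 1077 ± 13.3 on MMP1-remodelled and 1188 ± 33.0 on native matrix (SD, n = 2 each). Its log2 fold was -0.14 in each comparison with native (SE 0.10), with adjusted p = 0.78 for MMP13 and 0.75 for MMP1, and so Cfl1 did not pass. The 95% intervals were -0.34 to 0.055 for MMP13 and -0.34 to 0.059 for MMP1 with the error from the trend. With the error from its own libraries they were -0.25 to -0.037 and -0.25 to -0.033. Cfl1 alone of the 9 genes had own-library intervals without 0, in both comparisons, where 6.22% (MMP13) and 6.66% (MMP1) of all tested genes had such an interval. Between MMP13 and MMP1 matrix 0 of 9 genes had one, where 4.57% of tested genes did. The SD of Cfl1 between replicates, 0.034 on the log2 scale, was however 0.72 times the SD that read counting alone gives at its 652 to 1605 reads (0.047), so its own-library intervals rest on a spread below counting error. Quantile scaling was the setting that called Cfl1, at a log2 fold of -0.42 for MMP13 (adjusted p = 4.2e-04) and -0.39 for MMP1 (adjusted p = 0.0037). Of all 7284 tested genes, it called 19 higher and 9 lower for MMP13, and 11 higher and 3 lower for MMP1. That scaling gives all libraries the same value at the same rank, and Cfl1 ranked 10 and 7 among all genes on MMP13-remodelled, 7 and 9 on MMP1-remodelled and 5 and 6 on native matrix. Over the other alternatives the log2 fold lay between -0.17 and -0.11 in both comparisons. The ribosomal RNA entry Rn45s divides the libraries at the same place, with 0.692% and 0.968% of reads on MMP13-remodelled, 0.661% and 0.936% on MMP1-remodelled and 0.347% and 0.293% on native matrix, and its part in the values of Cfl1, Tpm1 and Myl9 was not tested.

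Pfn1 encodes profilin 1, which binds actin monomers and charges them with ATP. It had 746 and 633 units on MMP13-remodelled matrix, 634 and 661 on MMP1-remodelled matrix, and 644 and 620 on native matrix. MMP13 replicate 1 was the high library, and the other 5 spanned 620 to 661 units. Pfn1 had a log2 fold of 0.12 for MMP13 (95% interval -0.12 to 0.36, adjusted p = 0.87) and 0.035 for MMP1 (-0.20 to 0.28, adjusted p = 0.97). When MMP13 replicate 1 was left out, the log2 fold for MMP13 was 0.003.

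Among the filament-binding genes, Tagln encodes transgelin, an actin-binding protein abundant in contractile cells. It had 318 and 255 units on MMP13-remodelled matrix, 304 and 347 on MMP1-remodelled matrix, and 275 and 292 on native matrix. The MMP1 libraries lay above both native ones, and the MMP13 libraries on either side of them. Tagln had a log2 fold of 0.009 for MMP13 (95% interval -0.31 to 0.33, adjusted p = 0.99) and 0.20 for MMP1 (-0.12 to 0.52, adjusted p = 0.78). Tagln did not share the low value of Acta2 in native replicate 1.

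Tpm1 encodes a tropomyosin, the coiled coil that lies along actin filaments and governs access of myosin and cofilin. It had 147 and 134 units on MMP13-remodelled matrix, 129 and 158 on MMP1-remodelled matrix, and 123 and 113 on native matrix. All 4 libraries from remodelled matrix exceeded both native ones, with means of 141 ± 9.01 for MMP13 and 143 ± 21.2 for MMP1 against 118 ± 6.77 on native matrix (SD, n = 2 each). Tpm1 had a log2 fold of 0.25 for MMP13 (SE 0.22, 95% interval -0.18 to 0.68, adjusted p = 0.84) and 0.27 for MMP1 (SE 0.22, -0.16 to 0.71, adjusted p = 0.77), which did not pass. With 1 library left out it ran from 0.19 to 0.32 for MMP13 and from 0.12 (without MMP1 replicate 2) to 0.42 (without MMP1 replicate 1) for MMP1.

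The myosin II subunits had lower means on both remodelled matrices than on native matrix and did not pass. Myl9, a regulatory light chain whose phosphorylation switches on contraction, had 69.9 and 65.5 units on MMP13-remodelled matrix, 65.7 and 75.6 on MMP1-remodelled matrix, and 94.8 and 77.7 on native matrix. Both native libraries exceeded the other 4, and the means were 67.7 ± 3.09 for MMP13 and 70.7 ± 7.0 for MMP1 against 86.3 ± 12.1 on native matrix (SD, n = 2 each). Its log2 fold was -0.34 for MMP13 (SE 0.28, 95% interval -0.88 to 0.21, adjusted p = 0.82) and -0.28 for MMP1 (SE 0.28, -0.83 to 0.26, adjusted p = 0.83). Without native replicate 1 it was -0.20 for MMP13 and -0.14 for MMP1, and without native replicate 2 it was -0.48 and -0.42. Its replicate SD, 0.15 on the log2 scale, was below the 0.18 that counting gives at 39 to 103 reads per library.

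Myh9, the heavy chain of non-muscle myosin IIA, had 61.8 and 75.6 units on MMP13-remodelled matrix, 49.7 and 74.4 on MMP1-remodelled matrix, and 85.1 and 64.9 on native matrix. The replicates of each group were as far apart as the groups, which overlapped. Myh9 had a log2 fold of -0.12 for MMP13 (95% interval -0.69 to 0.45, adjusted p = 0.94) and -0.29 for MMP1 (-0.85 to 0.28, adjusted p = 0.83), and one of 0.002 for MMP1 when MMP1 replicate 1 was left out.

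**Figure D3:**
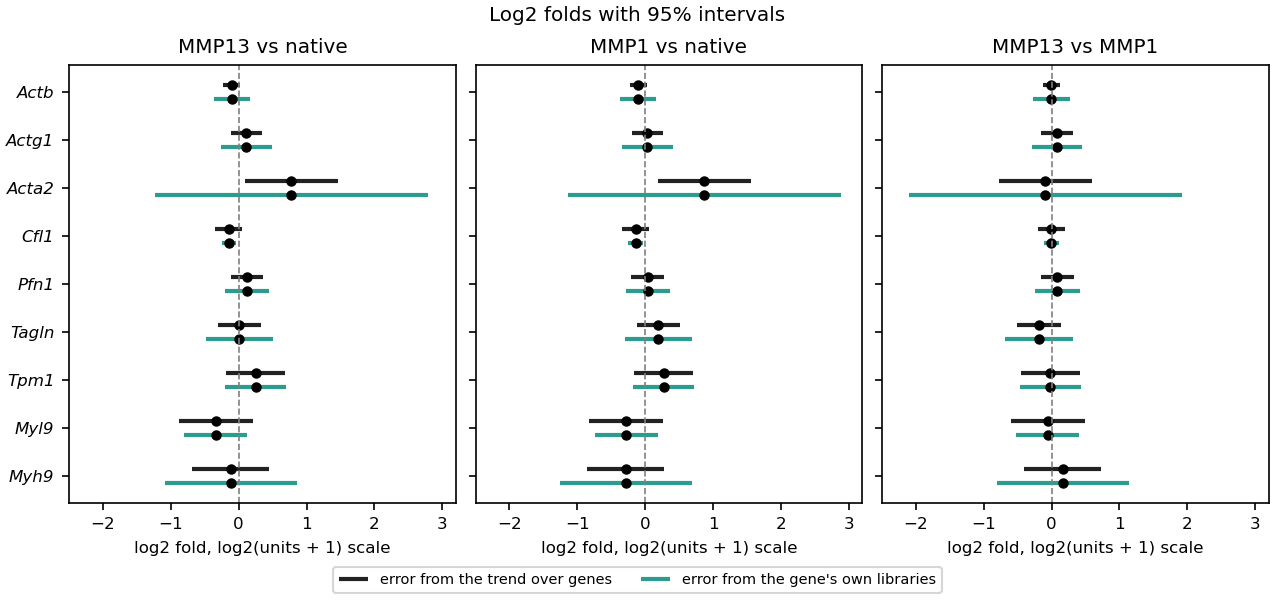
Log2 folds (x axis, log2(units + 1) scale) of the 9 genes for MMP13 against native, MMP1 against native and MMP13 against MMP1, with 95% intervals whose error comes from the trend over genes (black, upper) or from the gene's own libraries (green, lower). With the trend error Acta2 alone has intervals above 0 in both comparisons with native; with its own error those intervals run from -1.24 to 2.79 and from -1.14 to 2.88.

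Counted over the 9 genes, the libraries did not overlap for 3 in MMP13 against native (Tpm1 higher, Cfl1 and Myl9 lower), where 37.5% of all tested genes did not overlap, 18.9% higher and 18.6% lower. In MMP1 against native it was 5 (Acta2, Tagln and Tpm1 higher, Cfl1 and Myl9 lower), where 38.4% did not, 19.6% higher and 18.8% lower. Tpm1, Cfl1 and Myl9 are in both counts, which share the native libraries. How large a share of all tested genes is in both was not counted, so these genes are not set apart by it. Between MMP13 and MMP1 matrix the libraries of all 9 genes overlapped, where 31.4% of tested genes did not overlap, 15.9% higher and 15.4% lower. With 2 libraries a group, a lack of overlap is thus common in all 3 comparisons and was not used as a call.

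For MMP13 against MMP1, the log2 folds of the 9 genes lay between -0.19 and 0.17. The ends were Tagln at -0.19 (95% interval -0.51 to 0.13) and Myh9 at 0.17 (-0.40 to 0.73), each with an adjusted p of 1.00. Actb had a log2 fold of -0.004 (95% interval -0.13 to 0.12) and Cfl1 one of -0.004 (-0.20 to 0.20). For Acta2 the interval was wide, at -0.78 to 0.59 around a log2 fold of -0.095.

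The precision of each gene rests on its reads and on how far its replicates lie apart. The SD between replicates on the log2 scale was 0.084 for Actb, 0.12 for Actg1, 0.10 for Pfn1 and 0.16 for Tagln, which was 3.49, 2.05, 1.66 and 1.70 times the SD that read counting gives. For Actb, with 2542 to 5571 reads per library, counting error was thus a small part of the spread. Tpm1 (1.04 times) and Myl9 (0.80 times) were close to the counting limit. Acta2 (2.46 times, SD 0.63) and Myh9 (1.60 times, SD 0.31) scattered more than counting gives. Over the 2499 tested genes with at least 10 reads in every library the median of this ratio was 1.25, with a middle range of 0.89 to 1.67.

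**Figure D4:**
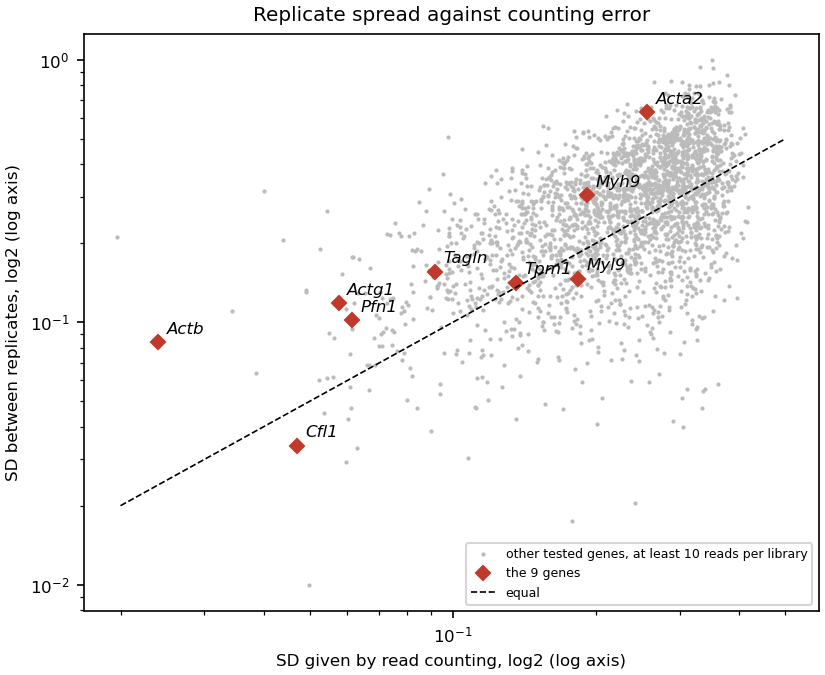
SD between replicates (y axis) against the SD given by read counting (x axis), both on the log2 scale and drawn on log axes, for the 9 genes (red diamonds) and the other tested genes with at least 10 reads in every library (grey); the dashed line marks equality. Cfl1 lies below the line at 0.034 against 0.047, Actb above it at 0.084 against 0.024, and Acta2 at 0.63 against 0.26.

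The wider actin machinery was described by 7 lists by role, holding 101 further symbols, of which 91 were in the table and 75 were tested. By limma 0 of these 75 passed in any of the 3 comparisons. At an unadjusted p under 0.05, 7 of the 75 were higher and 4 lower for MMP13 against native, where 3.9% of all tested genes were higher and 4.15% lower. For MMP1 against native 5 were higher and 3 lower, where 3.98% and 4.26% of all tested genes were, and for MMP13 against MMP1 1 was higher and 2 lower, where 2.58% and 2.64% were. The median log2 fold of the 75 was -0.066, 0.025 and 0.031 in these comparisons. Counts and medians per list, given next, include those of the 9 genes that belong to it. Each list is illustrated by its further gene with the smallest p in each comparison, and none of these passed.

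Of the actin isoforms (4 tested, 0 passed; median log2 fold 0.44 for MMP13 and 0.45 for MMP1 against native), the striated muscle forms had few reads: Acta1 had 4 reads and Actc1 7 reads over all libraries. With 4 genes, the median of this list fell between the log2 folds of Actg1 and Acta2. The abundant Actb and Actg1 had log2 folds of -0.10 and 0.11 for MMP13, and -0.10 and 0.034 for MMP1. Actg2, the enteric smooth muscle actin, had 0 and 11.8 units on MMP13-remodelled, 7.30 and 1.20 on MMP1-remodelled and 0 and 1.51 on native matrix, on 15 reads over all libraries. In the list of monomer turnover (15 tested, 0 passed; median log2 fold 0.12 for MMP13 and -0.14 for MMP1 against native), the coronin gene Coro1c had 51.5 and 47.0 units on MMP13-remodelled, 59.9 and 60.0 on MMP1-remodelled and 80.2 and 67.2 on native matrix. Coro1c had a log2 fold of -0.57 for MMP13 (adjusted p = 0.65). Limk2, a kinase that phosphorylates and inactivates cofilin, had 26.5 and 8.40 units on MMP13-remodelled, 2.92 and 4.80 on MMP1-remodelled and 13.4 and 12.8 on native matrix. These values rest on 36 and 5 reads, 2 and 4 reads, and 11 and 17 reads. MMP1 replicate 1 thus lay below the 4.38 units that a count of 0 allows in that library. The log2 fold of Limk2 was -1.56 for MMP1 against native (adjusted p = 0.47) and 1.75 for MMP13 against MMP1 (adjusted p = 0.81), and the 1.75 became 0.98 without MMP13 replicate 1 and 2.53 without MMP13 replicate 2.

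In the nucleation list (18 tested, 0 passed; median -0.13 for MMP13 and -0.014 for MMP1), Arpc4, a subunit of the branch-forming Arp2/3 complex, had 101 and 99.1 units on MMP13-remodelled, 108 and 101 on MMP1-remodelled and 60.8 and 67.2 on native matrix. The 4 libraries from remodelled matrix exceeded both native ones, at log2 folds of 0.64 for MMP13 (adjusted p = 0.43) and 0.70 for MMP1 (adjusted p = 0.33). In the capping and crosslinking list (19 tested, 0 passed; median 0.16 and 0.17), Lasp1, a LIM and SH3 protein of actin bundles, had 112 and 102 units on MMP13-remodelled, 112 and 97.2 on MMP1-remodelled and 60.8 and 61.9 on native matrix. Its log2 folds were 0.79 (95% interval 0.28 to 1.30, adjusted p = 0.21) and 0.76 (0.25 to 1.27, adjusted p = 0.24). Neither gene passed under any alternative, with a lowest adjusted p of 0.103 for Lasp1 and 0.188 for Arpc4. Cyfip1, of the WAVE regulatory complex, had a log2 fold of -0.86 for MMP13 against MMP1 (adjusted p = 0.97), and the capping protein gene Capg one of 0.35 (adjusted p = 1.00).

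In the tropomyosin, calponin and transgelin list (9 tested, 0 passed; median -0.077 and -0.082), Cald1, which encodes the filament-binding caldesmon, had 14.7 and 5.04 units on MMP13-remodelled, 36.5 and 18.0 on MMP1-remodelled and 21.9 and 26.4 on native matrix. Its log2 fold was -1.36 for MMP13 against native (adjusted p = 0.35) and -1.46 for MMP13 against MMP1 (adjusted p = 0.80), on as few as 3 reads in MMP13 replicate 2. Tpm4 had a log2 fold of -0.33 for MMP1 against native (adjusted p = 0.77). In the myosin II list (14 tested, 0 passed; median -0.29 and -0.22), Ppp1cb, the catalytic subunit of myosin phosphatase, had 52.9 and 57.1 units on MMP13-remodelled, 105 and 99.6 on MMP1-remodelled and 123 and 73.2 on native matrix. Its log2 fold was -0.78 for MMP13 against native (adjusted p = 0.27) and -0.88 for MMP13 against MMP1 (adjusted p = 0.40). Against native it was -0.41 without native replicate 1 and -1.14 without native replicate 2. Rnd3, of the same list, had a log2 fold of -1.26 for MMP1 against native (adjusted p = 0.35), which was carried by MMP1 replicate 2 at 6.0 units, beside 26.3 in replicate 1. In the other groups Rnd3 had 19.9 and 20.2 units on MMP13-remodelled and 34.0 and 30.2 on native matrix. Myl6, the essential light chain, carried the same reads as the row Myl6b in all 6 libraries and cannot be told from it.

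**Figure D5:**
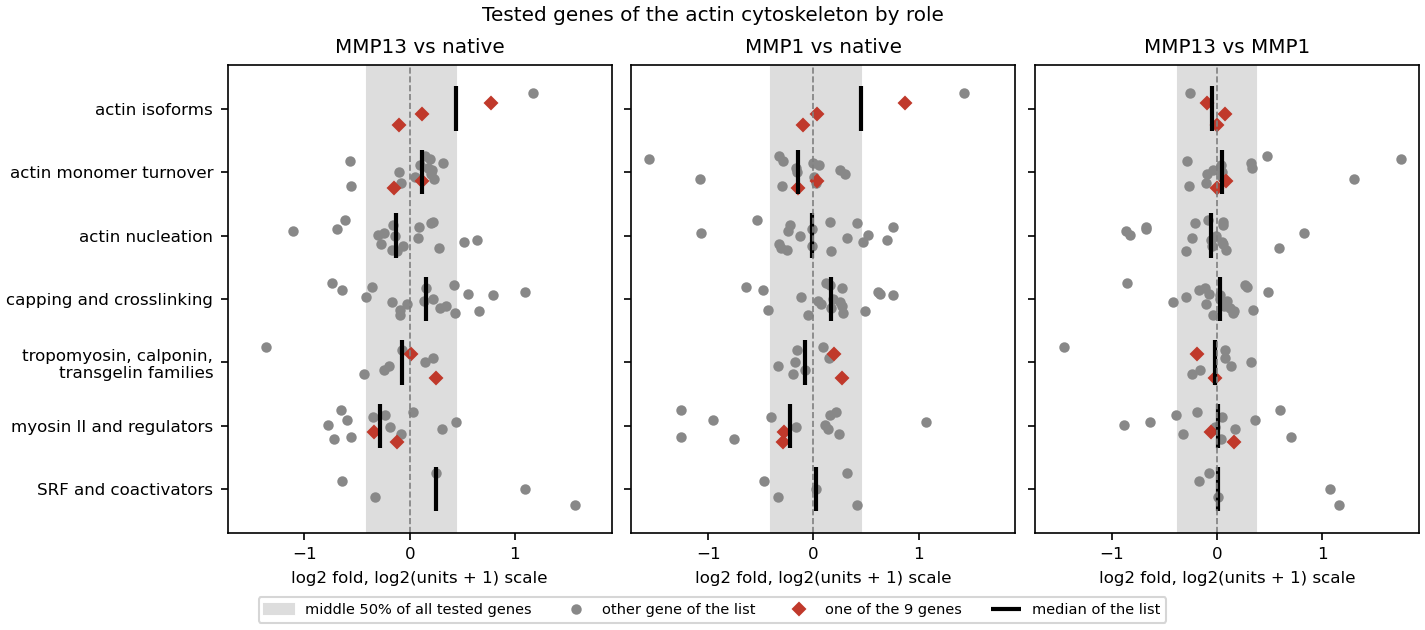
Log2 folds (x axis, log2(units + 1) scale) of the tested genes of each role list for MMP13 against native, MMP1 against native and MMP13 against MMP1, with red diamonds for the 9 genes, grey points for other genes of the list, a bar for the list median and a grey band for the middle 50% of all tested genes. The list medians lie between -0.29 and 0.45 in the comparisons with native, with the upper end from the actin isoforms, of which 4 were tested. No gene shown passed the test.

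The list of SRF and its coactivators had 5 tested genes (Srf, Fhl1, Fhl2, Fhl3 and Vcl), of which 0 passed. Its median log2 fold was 0.25 for MMP13 against native, the value of Vcl. For MMP1 against native it was 0.025, the value of Fhl2. The coactivators that free actin monomers hold back, Mkl1 and Mkl2 (also named Mrtfa and Mrtfb), were not among the tested genes. The list therefore does not measure them. Srf itself had 6.62 and 15.1 units on MMP13-remodelled, 10.2 and 1.20 on MMP1-remodelled and 1.22 and 5.28 on native matrix, on at most 9 reads per library, too few to read a difference. Fhl2, an SRF cofactor, had 19.1 and 31.9 units on MMP13-remodelled, 11.7 and 10.8 on MMP1-remodelled and 13.4 and 9.06 on native matrix. These values of Fhl2 rest on few reads: 26 and 19 on MMP13-remodelled, 8 and 9 on MMP1-remodelled and 11 and 12 on native matrix. Fhl2 had a log2 fold of 1.10 for MMP13 against native (adjusted p = 0.61) and 1.07 for MMP13 against MMP1 (adjusted p = 0.97). Fhl3 had a log2 fold of -0.47 for MMP1 against native (adjusted p = 0.78).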

How the data were processed

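The deposited table gives a normalized signal per gene and library. Its values are reads over a library-wide size factor: 100% of those above 0 were whole multiples of 1 read's worth (tolerance 0.01 reads), and whole reads were recovered on that basis. The rat build rn5 and the tools bcl2fastq, TopHat and DESeq are listed per the submitters' processing notes. Tool versions, the gene counter, annotation, strand use, collapsing of molecular identifiers and the handling of reads that match actin or cofilin pseudogenes are not given in the labels or notes used here.

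Groups and replicate numbers came from the sample titles. limma 3.58.1 in R 4.3.3 (eBayes with intensity trend) was run on log2(value + 1), with 1 coefficient per group and all 6 libraries, on 7284 genes with at least 5 units in at least 2 libraries. Folds on this scale understate changes of low genes. Genes were called at 0.05 after Benjamini-Hochberg adjustment. The prior degrees of freedom were infinite, so a gene's error came from the trend. Intervals from a gene's own libraries (least squares, 3 residual degrees of freedom) are therefore given beside it. edgeR 4.0.16 (quasi-likelihood test, 4574 genes after filterByExpr) and DESeq2 1.42.0 on recovered reads were alternatives. The design file named edgeR for counts and limma for normalized values, and the second branch was followed. The scripts were tested on simulated data.

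The members, lists and comparisons were chosen with earlier results of these data known. The genes named were the 9 members and, per role list and comparison, the tested further gene with the smallest p. Tpm2, Myl12a, Myl12b, Acta1, Actc1, Myl6, Srf, Fhl1 and Vcl were named after their values were seen. Role lists are described by counts and medians, with no list test.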

Additional observations from a re-analysis of the deposited data

How the results depend on the processing

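Each of the 9 genes and each count was recomputed under 18 alternatives. With quantile scaling 1 of the 9 genes, Cfl1, was called in each comparison with native (log2 fold -0.42 for MMP13 and -0.39 for MMP1). Of all 7284 tested genes, that scaling called 19 higher and 9 lower for MMP13, and 11 higher and 3 lower for MMP1. In no other alternative was any of the 9 called in any comparison. The count of all genes called for MMP13 against native (30) was 18 with a pseudocount of 0.5, 13 with no filter, 6 with only the 2 groups compared, and 0 without the limma trend and with each gene's own spread. For MMP1 against native (11) it was 1 by DESeq2, 5 with only the 2 groups and 0 in those last 2 fits. For MMP13 against MMP1 (3) it was 1 by DESeq2, 1 with only the 2 groups and 0 in those 2 fits. Quantile scaling gave 11 higher and 3 lower for MMP1 against native, where the values as deposited gave 10 and 1. With 1 library left out these counts ran from 6 to 35, 3 to 17 and 1 to 27, and the median log2 fold of the 9 genes from -0.017 to 0.17, -0.025 to 0.066 and -0.12 to 0.041.

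Some folds changed sign. For MMP13 against native, Tagln was -0.020 with quantile and -0.0086 with TMM scaling. For MMP13 against MMP1, TMM, edgeR and DESeq2 gave 0.00053, 0.0026 and 0.0030 for Actb and 0.00039, 0.0022 and 0.0022 for Cfl1, and Actg2 was 0.068 with a pseudocount of 5 and 0.41 by DESeq2. With 1 library left out, log2 folds for MMP13 against native ran from -0.017 to 0.24 for Actg1, -0.15 to 0.17 for Tagln, -0.31 to 0.073 for Myh9, -0.28 to 0.099 for Capg and -0.59 to 0.96 for Limk2. For MMP1 against native they ran from -0.096 to 0.16 for Actg1, -0.57 to 0.0020 for Myh9, -0.40 to 0.58 for Cald1, -0.83 to 0.34 for Cyfip1, -0.23 to 0.28 for Fhl2 and -0.26 to 0.48 for Ppp1cb. For MMP13 against MMP1 they ran from -0.054 to 0.047 for Actb, -0.34 to 0.15 for Acta2, -0.031 to 0.024 for Cfl1, -0.032 to 0.20 for Pfn1, -0.17 to 0.13 for Tpm1, -0.16 to 0.041 for Myl9 and -0.12 to 0.45 for Myh9. For further genes there they ran from -1.22 to 1.58 for Actg2, -0.36 to 0.0075 for Fhl3, -0.071 to 0.14 for Lasp1, -0.38 to 1.58 for Rnd3 and -0.10 to 0.38 for Tpm4. Without a change of sign, they ran from -0.18 to -0.029 (MMP13) and -0.18 to -0.025 (MMP1) for Actb against native, from 0.10 to 0.29 for Tagln and -2.24 to -0.28 for Rnd3 with MMP1 against native, and from -2.05 to -0.67 for Cald1 with MMP13 against native. The cause was not tested. Alternatives for the Tpm1 to Tpm2 ratio were chosen after seeing the data.

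With the replicate number as a block, 21 genes were called for MMP13 against native, 11 for MMP1 against native and 2 for MMP13 against MMP1, with 0 of the 9 in each. Deviations of same-numbered libraries correlated at -0.049 (MMP13 and native), -0.018 (MMP1 and native) and -0.021 (MMP13 and MMP1) over 3188 genes, and the labels do not say that the numbers mark pairs, so they were not treated as pairs.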

Other observations

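The tropomyosin genes Tpm1 and Tpm2 had folds of opposite sign against native matrix, a pattern chosen after the values were seen and so given without a test. Tpm2 had 174 and 170 units on MMP13-remodelled matrix, 197 and 208 on MMP1-remodelled matrix, and 238 and 225 on native matrix, while Tpm1 had 147 and 134 units on MMP13-remodelled, 129 and 158 on MMP1-remodelled and 123 and 113 on native matrix. The log2 fold of Tpm2 was -0.43 for MMP13 against native (limma adjusted p = 0.49) and -0.19 for MMP1 against native (adjusted p = 0.82), and Tpm2 did not pass. The ratio of Tpm1 to Tpm2 within a library, which does not depend on the size factor, was 0.847 and 0.792 on MMP13-remodelled, 0.652 and 0.763 on MMP1-remodelled and 0.515 and 0.503 on native matrix. The 3 groups did not overlap in this ratio, but how often other gene pairs separate in this way was not counted. On the log2 scale the ratio was 0.68 above native on MMP13-remodelled and 0.47 above native on MMP1-remodelled matrix. Leaving out 1 library moved these to between 0.63 and 0.73 and between 0.35 and 0.58. The replicate SD of Tpm2, 0.048 on the log2 scale, was however 0.43 times the 0.11 that read counting alone gives. For Tpm1 counting alone gives 0.14. These ranges thus rest in part on a spread below counting error.

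The ratio of Pfn1 to Cfl1 was 0.708 and 0.578 on MMP13-remodelled, 0.594 and 0.609 on MMP1-remodelled and 0.553 and 0.512 on native matrix, with the 4 libraries from remodelled matrix above both native ones. For this ratio, too, the share of gene pairs that separate so was not counted. Myl12a, the regulatory light chain gene related to Myl9, had 792 and 821 units on MMP13-remodelled, 708 and 725 on MMP1-remodelled and 574 and 742 on native matrix, at a log2 fold of 0.31 for MMP13 against native (adjusted p = 0.37). For the same comparison Myl9 had -0.34 and the other related light chain gene, Myl12b, had -0.18. These genes too were picked after their values were seen.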
